A study of Mus musculus with 18 samples.

Results

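The lysosome is an acidic compartment in which proteins, glycans and lipids are broken down. Its acidity is set by the vacuolar proton pump (V-ATPase), in which a cytosolic V1 sector hydrolyses ATP and a membrane V0 sector carries protons into the lumen, and which is switched on and off partly by joining and separating the sectors. The lumen holds cathepsins and other peptidases, glycosidases and lipid-degrading enzymes with their helper proteins, and heavily glycosylated membrane proteins line the inside. Many of these genes are known targets of TFEB and its relatives, transcription factors that bind the DNA letters CACGTG. In liver, hepatocytes carry many lysosomes, and resident macrophages (Kupffer cells) are also rich in cathepsins.

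A total of 39 genes of this module were followed among the 22524 genes counted in mouse liver. They were chosen by symbol for their known roles and matched to Ensembl identifiers: 14 encode subunits or accessory proteins of the pump and 25 encode peptidases, glycosidases, lipid hydrolases, lipid-handling proteins or lysosomal membrane proteins. The proteolipid gene *Atp6v0c* was left out because it lies close to *Rps2*, the gene targeted in these mice. All 39 members passed the filter on low counts, with at least 142 counts in every mouse.

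Liver RNA came from 10 female A226Y mice and 8 female wild-type (WT) mice, all 15 months old and on a C57BL/6 background, with 1 library per mouse. A226Y mice were heterozygous for a knock-in of the A226Y mutation in *Rps2*, a protein of the small ribosomal subunit, which lowers the accuracy of translation. Both genotypes carried the CMV-Cre transgene, which is active in all tissues. In A226Y mice it removed a loxP-flanked stop cassette from the knock-in allele, but the methods describe this excision as incomplete, so that the liver was a mosaic of mutant cells and cells with only 1 working *Rps2* copy. *Rps2* ranged from 46.9 to 83.0 CPM (counts scaled to library size by the TMM method, the unit of every level below) in A226Y mice and from 104 to 143 CPM in WT mice, without overlap, and its log2 fold change was −0.73 (SE, standard error, 0.11; adjusted p = 0.000772). Total counts ranged from 23850565 to 62126131 in A226Y mice and from 25869192 to 34918732 in WT mice. Hepatocyte marker genes summed to between 87800 and 184000 CPM in the 18 mice.

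The comparison asked whether the genes of the pump and of the degradative enzymes moved in the liver of A226Y mice. Of the 39 members, 10 differed between genotypes at an adjusted p under 0.05 (edgeR's quasi-likelihood test, adjusted over 13353 genes), 8 of them lower and 2 higher in A226Y mice. The share called was 25.6%, where 14.3% of all tested genes were called, 7.27% higher and 7.03% lower. Of the 14 pump members, 1 was called, and it was higher. Among the other 25, 8 were lower and 1 was higher. The median log2 fold change was −0.02 over the pump members and −0.15 over the other 25, while over all tested genes it was −0.004. The called members ranged from 0.786 to 1.24 times their WT level, and all members from 0.722 (*Ctsc*) to 1.32 times (*Ctsl*).

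**Figure D1:**
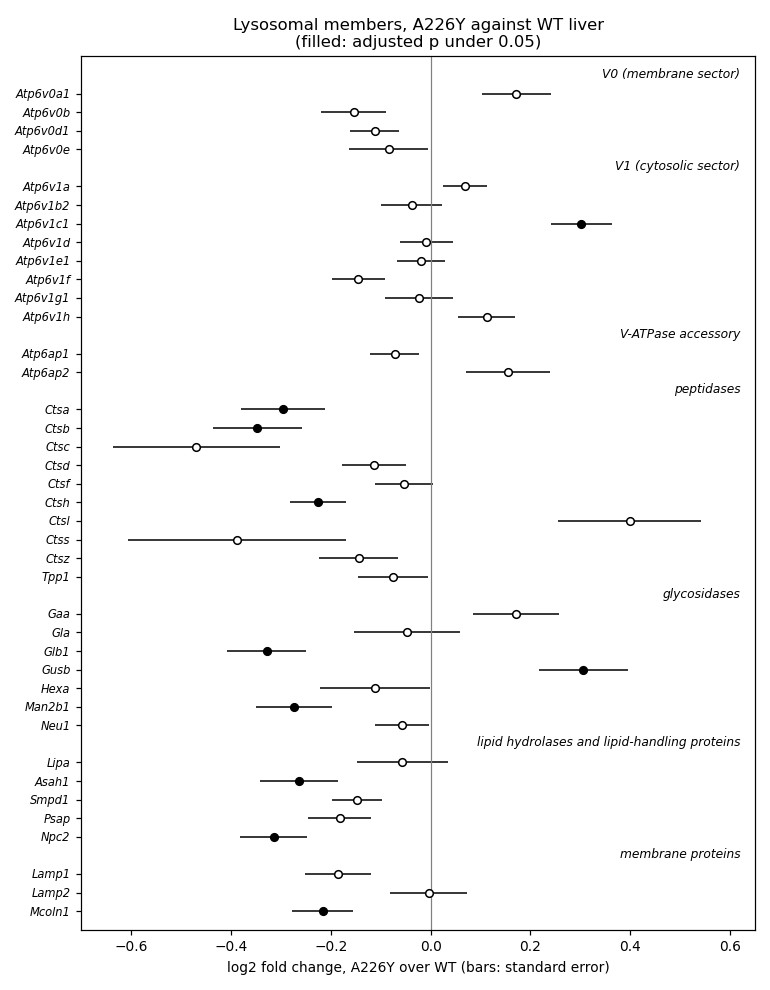
The x axis gives the log2 fold change of A226Y over WT liver for each of the 39 members, grouped by role, with its SE as a bar, and filled points have an adjusted p under 0.05. The pump genes at the top lie between −0.15 and 0.30 with 1 filled point, and most of the peptidase, glycosidase, lipid and membrane genes lie to the left of 0.

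Levels can be compared between genes only per transcript length, here as mean CPM per kilobase of the longest principal transcript, and a gene whose liver transcript is shorter than the annotated one would stand higher. On this scale the most abundant V0 gene was *Atp6v0b* (83.7 in A226Y and 93.1 in WT mice) and the most abundant V1 gene was *Atp6v1e1* (81.0 and 82.2). *Atp6ap1* was the higher of both accessory genes (31.5 and 33.1). The peptidases were led by *Ctsh* (211 and 246), the lipid group by *Psap* (255 and 289) and the membrane group by *Lamp1* (258 and 293). Among glycosidases the leader was *Gaa* in A226Y mice (40.6, against 31.8 for *Man2b1*) and *Man2b1* in WT mice (38.4, against 36.1 for *Gaa*). On this scale the pump genes lay below the leading peptidase, lipid and membrane genes in both genotypes.

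The promoters of the members are described first for the sequence they share. RefSeq promoters (GRCm38.p6, 250 bases before and 50 bases after the start site, 300 bases in all) were matched by symbol for 32 of the 39 members. CACGTG, which reads the same on both strands, occurred in 13 of these 32 (40.6%), in 8.09% of all 27025 genes with a promoter and in 11.4% of the 10357 tested ones. The longer TCACGTGA, also its own reverse complement and always containing CACGTG, occurred in 7 members (21.9%), in 1.12% of all genes and in 2.12% of the tested ones. The pump members held CACGTG in 4 of 10 promoters and the other members in 9 of 22. It was present in 3 of the 6 called members with an entry and in 10 of the 26 that were not called. Within the module the motif was therefore found beside called and uncalled genes alike. Stretches of 60 bases are shown for the 3 called members that hold the motif, and for *Atp6v0d1*, a pump gene that was not called and that was chosen after its values were seen. Capitals mark CACGTG, and each stretch reads along the gene.
*Ctsa* (chr2:164833734-164833793, plus strand): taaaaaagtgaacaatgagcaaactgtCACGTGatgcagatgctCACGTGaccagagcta
*Glb1* (chr9:114401003-114401062, plus strand): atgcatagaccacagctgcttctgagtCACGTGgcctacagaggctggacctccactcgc
*Mcoln1* (chr8:3500421-3500480, plus strand): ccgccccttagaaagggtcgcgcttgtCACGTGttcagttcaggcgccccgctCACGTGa
*Atp6v0d1* (chr8:105566035-105566094, minus strand): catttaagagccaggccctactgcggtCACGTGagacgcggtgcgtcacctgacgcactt

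In *Ctsa* the first of its 2 copies begins 12 bases before an annotated start site, and a promoter at a further start site of the gene holds none. In *Glb1* the motif begins 48 bases before the start, and *Mcoln1* has copies 71 and 45 bases before it. In *Atp6v0d1* it begins 3 bases before the start. *Ctsa*, *Glb1* and *Mcoln1* were lower in A226Y mice, while *Atp6v0d1*, with a log2 fold change of −0.11 (adjusted p = 0.125), was not called. A motif match is a description of the letters and says nothing of binding.

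The called pump gene was *Atp6v1c1*. It encodes subunit C of V1, a stalk subunit that is released when V1 and V0 separate. Its level was lowest 41.2, median 48.5 and highest 62.2 CPM in A226Y mice, and lowest 36.6, median 40.3 and highest 42.7 CPM in WT mice. In 9 of 10 A226Y mice it was above every WT mouse. The log2 fold change was 0.30 (SE 0.06, adjusted p = 0.00439, edgeR), a 1.23-fold difference, and the adjusted p stayed at or below 0.0104 when any 1 mouse was left out.

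None of the other 7 V1 genes was called. They included the catalytic subunit gene *Atp6v1a* (log2 fold change 0.07), its partner *Atp6v1b2* (−0.04), the rotor and stalk genes *Atp6v1d* (−0.01), *Atp6v1e1* (−0.02), *Atp6v1f* (−0.15, adjusted p = 0.0703) and *Atp6v1g1* (−0.02), and *Atp6v1h* (0.11). For *Atp6v1e1*, whose log2 SE was 0.05, the A226Y mice spanned 96.5 to 118 CPM and the WT mice 101 to 113 CPM. In none of these 7 genes did more than 5 of the 10 A226Y mice lie beyond the WT range on one side.

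In V0, 0 of 4 genes were called by edgeR, DESeq2 or limma-voom, and 3 had an unadjusted p under 0.05 (1 higher, 2 lower). The smallest p belonged to *Atp6v0a1*, the widely expressed isoform of the large subunit a that couples V1 to V0, with lowest, median and highest levels of 46.0, 54.2 and 62.8 CPM in A226Y and 41.9, 46.1 and 54.5 CPM in WT mice. The groups overlapped, with 5 A226Y mice above every WT mouse, and the log2 fold change was 0.17 (SE 0.07, adjusted p = 0.103). It was called with a GC offset (0.22, adjusted p = 0.0397) and without WT mouse 6 (0.20, 0.0487). The other V0 genes, *Atp6v0b*, *Atp6v0d1* and *Atp6v0e*, had log2 fold changes of −0.15, −0.11 and −0.08. *Atp6v0b* and *Atp6v0d1* lay below the WT median in all 10 A226Y mice.

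Of the accessory genes, *Atp6ap2*, which encodes the prorenin receptor and is needed for pump biogenesis, had the smaller p. Its levels were 59.4, 64.6 and 77.8 CPM (lowest, median, highest) in A226Y mice and 48.9, 58.8 and 76.7 CPM in WT mice. All 10 A226Y mice lay above the WT median, with 1 above every WT mouse, and the log2 fold change of 0.16 had an SE of 0.08 (adjusted p = 0.22). *Atp6ap1* had a log2 fold change of −0.07.

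Summed over the 14 pump members, the level was 759 to 843 CPM (median 813) in A226Y mice and 759 to 854 CPM (median 812) in WT mice. The sums of both genotypes covered nearly the same range. Over the 22 luminal members (peptidases, glycosidases and the lipid group), the sum was 4210 to 5190 CPM (median 4400) in A226Y mice and 4480 to 5140 CPM (median 4890) in WT mice. It was below every WT mouse in 6 A226Y mice, and mouse 29, an A226Y mouse, had the highest sum of all.

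Taking for each mouse the median over genes of the log2 ratio to the WT mean gives each gene the same weight. For the pump this value was −0.15 to 0.04 (median −0.01) in A226Y mice and −0.07 to 0.05 (median 0.00) in WT mice, with 1 A226Y mouse below all WT mice. For the luminal members it was −0.25 to −0.05 (median −0.17) in A226Y mice and −0.09 to 0.10 (median 0.00) in WT mice, with 8 of 10 A226Y mice below all WT mice. No test was made on these medians, since they are scores over chosen genes.

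**Figure D2:**
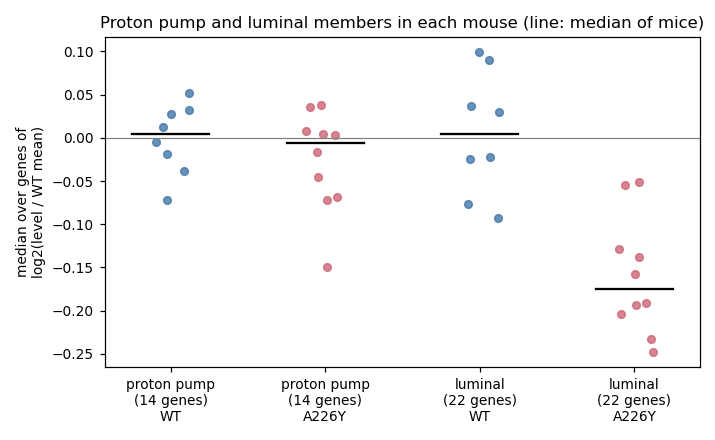
Each point is 1 mouse, and the y axis gives the median over the genes of a group of log2(level / WT mean); black lines are medians of mice. The A226Y and WT mice overlap for the 14 pump genes, with medians of −0.01 and 0.00, and for the 22 luminal genes 8 of the 10 A226Y mice lie below the lowest WT mouse.

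Of the 10 peptidases, 3 were called, all lower in A226Y mice. *Ctsh*, an aminopeptidase, was lowest 307, median 332 and highest 393 CPM in A226Y mice and 386, 393 and 420 CPM in WT mice. In 9 of 10 A226Y mice it was below every WT mouse, and its log2 fold change was −0.23 (SE 0.06, adjusted p = 0.013). *Ctsb*, a cysteine protease, was 561, 646 and 823 CPM in A226Y and 652, 861 and 988 CPM in WT mice. All 10 A226Y mice lay below the WT median and 5 below every WT mouse. The log2 fold change of *Ctsb* was −0.35 (SE 0.09, adjusted p = 0.0146). *Ctsa*, a serine carboxypeptidase that also protects β-galactosidase and neuraminidase in a complex, was 147, 171 and 209 CPM in A226Y and 183, 205 and 260 CPM in WT mice. In 7 A226Y mice it was below every WT mouse, with a log2 fold change of −0.30 (SE 0.08, adjusted p = 0.0245). The call of *Ctsh* was lost with an offset for transcript length (adjusted p = 0.0875), and that of *Ctsa* without WT mouse 24 (log2 fold change −0.27, adjusted p = 0.0563).

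Both *Ctsa* and *Ctsb* share exon sequence with a neighbour on the opposite strand. Whether the counting separated strands, and how it assigned reads from shared exons, is uncertain. *Ctsb* shares 774 of its 6051 exon bases with *Fdft1*, squalene synthase, which had a log2 fold change of −0.67 (adjusted p = 0.0344) and 35147 counts over all mice where *Ctsb* had 437469. *Ctsa* shares 495 of 4715 exon bases with *Pltp*, phospholipid transfer protein, which had a log2 fold change of −0.66 (adjusted p = 0.0321) and 67276 counts where *Ctsa* had 110582. The part of these neighbours in the values of *Ctsa* and *Ctsb* was not tested. *Glb1* shares 165 of 3008 exon bases with *Tmppe* on the same strand, and *Tmppe* had a log2 fold change of −0.01.

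The other 7 peptidases were not called by edgeR, while DESeq2 also called *Ctsc* (adjusted p = 0.0341) and *Ctsl* (0.0292). They include the aspartic protease gene *Ctsd* (log2 fold change −0.11), *Ctsf* (−0.05), *Ctsz* (−0.14) and the tripeptidyl peptidase gene *Tpp1* (−0.08). The fold changes furthest from 0 in the module belonged to cysteine proteases whose spread between mice was also the widest, with residual log2 SDs of 0.47 for *Ctss*, 0.39 for *Ctsc* and 0.32 for *Ctsl*. *Ctsl* was 448, 708 and 1110 CPM (lowest, median, highest) in A226Y and 440, 573 and 687 CPM in WT mice, with 7 A226Y mice above every WT mouse. Its log2 fold change of 0.40 (SE 0.14) had an adjusted p of 0.0649, and it was called without A226Y mouse 5 or 22 or WT mouse 33 (adjusted p down to 0.0242). *Ctsc*, which activates serine proteases of leukocytes, was 87.7, 115 and 201 CPM in A226Y and 101, 173 and 262 CPM in WT mice. Its log2 fold change of −0.47 (SE 0.17) had an adjusted p of 0.0656, and it was called without A226Y mouse 5 or 29 or WT mouse 6 (adjusted p down to 0.0154). *Ctss*, typical of macrophages and other antigen-presenting cells, was 29.5, 37.5 and 100 CPM in A226Y and 36.5, 53.0 and 98.4 CPM in WT mice, with a log2 fold change of −0.39 (SE 0.22, adjusted p = 0.241). The highest value of *Ctss*, *Ctsc* and *Ctsl* in each genotype came from A226Y mouse 29 and WT mouse 33.

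Within their genotypes, these mice also had the highest summed levels of Kupffer cell and macrophage markers. They were likewise highest for the markers of other leukocytes, at 284 CPM in mouse 29 and 376 CPM in mouse 33. The hepatocyte marker sum was lowest of the A226Y mice in mouse 29 (87800 CPM) and highest of the WT mice in mouse 33 (184000 CPM). The 16 Kupffer cell and macrophage markers, which include *Adgre1*, *Clec4f*, *Vsig4* and *Cd5l*, summed to 720 to 2190 CPM (median 938) in A226Y mice, highest in mouse 29, and to 1010 to 1820 CPM (median 1370) in WT mice, highest in mouse 33. Within this list, *Timd4*, *Marco* and *Slc40a1* were lowest of the WT mice in mouse 33. In 7 of 10 A226Y mice the sum was below every WT mouse. Of the markers, 15 of 16 had a negative log2 fold change (median −0.42), and 1, *Clec4f*, was called by edgeR (−0.65, adjusted p = 0.0261), while DESeq2 called 3 and limma-voom 2 of the 16. At an unadjusted p under 0.05 these tools had 5, 8 and 11 markers. No marker was at 0 in any mouse. Of the markers of other leukocytes, 15 of 17 were negative and 1 was called lower, and of the stellate cell and fibroblast markers 4 of 12 were called lower and 1 higher. By edgeR, 0 of 12 sinusoidal endothelial markers and 0 of 7 cholangiocyte markers were called, with 1 of each list at an unadjusted p under 0.05 and none called by DESeq2 either. All 7 cholangiocyte markers had a positive log2 fold change (median 0.21), and with surrogate variables 1 of them was called. Of 12 hepatocyte markers, edgeR called 5 (4 higher, 1 lower) and DESeq2 7. In bulk tissue, fewer cells of a type and less RNA per cell cannot be told apart, and the part of the macrophage markers in the lower levels of the luminal genes was not tested. With mice 29 and 33 both left out, a choice made after seeing the data, 16 members were called, 14 of them lower and 2 higher, and 17.8% of all genes were called. All 10 members called with the full set were among them. The 6 added, all lower, were *Ctsc* (log2 fold change −0.46, adjusted p = 0.0305), *Ctss* (−0.45, 0.0126), *Smpd1* (−0.17, 0.0223), *Psap* (−0.20, 0.0305) and the pump genes *Atp6v0b* (−0.21, 0.0155) and *Atp6v1f* (−0.17, 0.0363), so that 3 of 14 pump genes were called in that fit. Without mouse 29 alone *Ctss* was called, at −0.61 (adjusted p = 0.0099), and without mouse 33 alone it was at −0.23 (0.482).

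**Figure D3:**
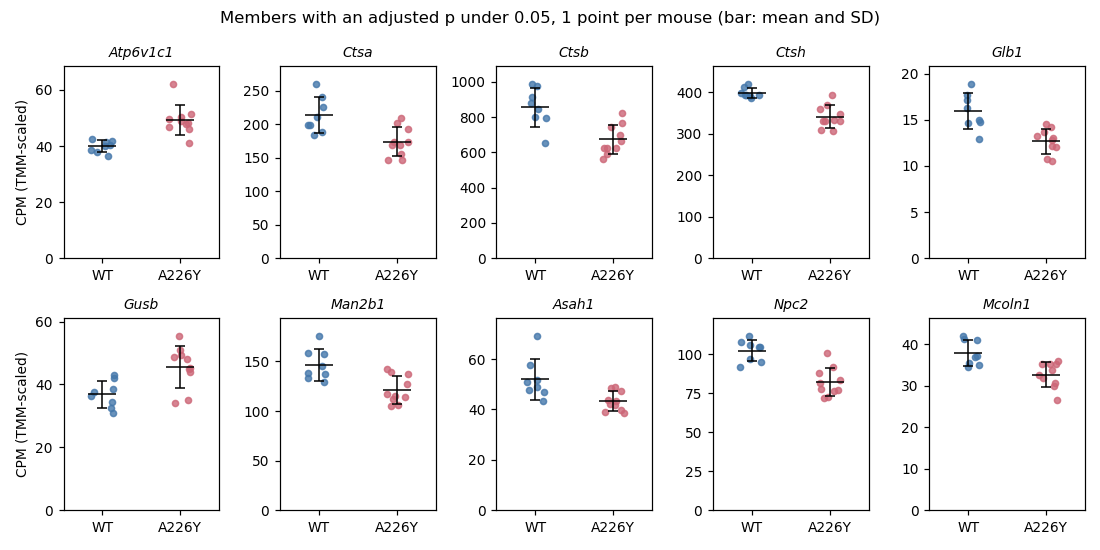
Each panel shows 1 called member, with 1 point per mouse (8 WT, 10 A226Y) in TMM-scaled CPM on an axis from 0 and black bars for the mean and SD. *Atp6v1c1* and *Gusb* were higher in A226Y mice and the other 8 genes lower, and the closest to full separation were *Atp6v1c1* and *Ctsh*, with 9 of 10 A226Y mice outside the WT range.

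Of the 7 glycosidases, 3 were called, in both directions. *Glb1*, the lysosomal β-galactosidase that removes galactose from gangliosides, was lowest 10.5, median 12.9 and highest 14.5 CPM in A226Y and 12.9, 15.6 and 18.9 CPM in WT mice. All 10 A226Y mice lay below the WT median, and the log2 fold change was −0.33 (SE 0.08, adjusted p = 0.0107). *Man2b1*, the lysosomal α-mannosidase of glycoprotein breakdown, was 105, 116 and 142 CPM in A226Y and 129, 142 and 176 CPM in WT mice. It was below every WT mouse in 7 A226Y mice (log2 fold change −0.27, SE 0.08, adjusted p = 0.0226). *Gusb*, β-glucuronidase, which removes glucuronic acid from glycosaminoglycans, went the other way, with 34.1, 46.6 and 55.5 CPM in A226Y and 31.0, 37.0 and 42.9 CPM in WT mice. In 8 A226Y mice *Gusb* was above every WT mouse, and in the other 2 below the WT median. Its log2 fold change was 0.31 (SE 0.09, adjusted p = 0.0276).

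The call of *Man2b1* was lost without WT mouse 24 (adjusted p = 0.0505) and with a GC offset (0.0525), and that of *Gusb* without A226Y mouse 7 or 11 or WT mouse 13, 14 or 24 (adjusted p up to 0.0647). The uncalled glycosidases were *Gaa*, acid α-glucosidase, which degrades lysosomal glycogen (log2 fold change 0.17, adjusted p = 0.191), *Hexa* (−0.11), *Neu1* (−0.06) and *Gla* (−0.05). *Gaa* was above the WT median in all 10 A226Y mice, at 139 to 165 CPM, but the WT mice spanned 114 to 191 CPM around a median of 122. Without WT mouse 6, which held the 191 CPM, *Gaa* was called higher, with a log2 fold change of 0.27 (adjusted p = 0.00407). *Gla* was the least abundant member, at 4.99 to 8.81 CPM in A226Y and 5.88 to 9.32 CPM in WT mice.

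All 5 genes for lipid hydrolases and lipid-handling proteins had negative log2 fold changes, and 2 were called. *Npc2*, a soluble protein that hands cholesterol to the membrane for export, was lowest 71.7, median 79.9 and highest 101 CPM in A226Y and 91.9, 105 and 112 CPM in WT mice. In 8 A226Y mice it was below every WT mouse, and its log2 fold change was −0.31 (SE 0.07, adjusted p = 0.00556). *Asah1*, acid ceramidase, was 38.7, 42.7 and 48.9 CPM in A226Y and 43.4, 49.8 and 69.3 CPM in WT mice. All 10 A226Y mice were below the WT median, and the log2 fold change was −0.26 (SE 0.08, adjusted p = 0.0292). The call of *Asah1* was lost without A226Y mouse 7 or 32 or WT mouse 14 or 33, with an adjusted p up to 0.068. The acid sphingomyelinase gene *Smpd1* (−0.15, adjusted p = 0.0518) and *Psap*, which encodes the saposin activators (−0.18, adjusted p = 0.0585), were just above the threshold in edgeR and were called by DESeq2 (0.0306 and 0.0131). Leaving out 1 mouse brought *Smpd1* under the threshold without A226Y mouse 29 or WT mouse 4 or 28, and *Psap* without A226Y mouse 5 or 29 or WT mouse 6. Each lay below every WT mouse in many A226Y mice, *Smpd1* in 9 and *Psap* in 6. *Lipa*, lysosomal acid lipase, had a log2 fold change of −0.06.

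Of the 3 membrane proteins, *Mcoln1*, the calcium channel of the lysosomal membrane, was called. It was lowest 26.6, median 33.2 and highest 35.9 CPM in A226Y and 34.4, 37.0 and 42.0 CPM in WT mice. In 6 A226Y mice it was below every WT mouse, and the log2 fold change was −0.22 (SE 0.06, adjusted p = 0.0246). The call was lost without WT mouse 14, 21 or 24 (adjusted p up to 0.0558), with a length offset (0.0792) and with a GC offset (0.0885). The structural glycoproteins were not called by edgeR, with log2 fold changes of −0.19 for *Lamp1* (adjusted p = 0.0623) and −0.004 for *Lamp2* (adjusted p = 0.979). *Lamp1* was called by DESeq2 (adjusted p = 0.0214) and by edgeR without A226Y mouse 5 or WT mouse 6 (adjusted p down to 0.0253). It was below the WT median in all 10 A226Y mice, and *Lamp2* in 2 of 10.

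Two-sided exact permutation tests of single genes over all divisions of the 18 mice, unadjusted, gave p-values between 0.000183 (*Atp6v1c1*) and 0.00836 (*Gusb*) for the 10 called members. These members had been called on the same difference in the same mice, so the p-values add no separate support. The uncalled *Lamp1*, *Psap* and *Smpd1* lay in the same range in this test (0.00366, 0.0037 and 0.00402). When 4 surrogate variables estimated from the counts were added to the model, no member was called by edgeR, and 50 of all genes were called (0.374%). At an unadjusted p under 0.05, 5 members remained in that fit. They were *Atp6v1c1* (log2 fold change 0.32, adjusted p = 0.0568), *Ctsh*, *Npc2*, *Atp6v0b* and *Ctsa* (adjusted p = 0.141, 0.17, 0.192 and 0.311). Of the called members, *Ctsb*, *Glb1*, *Asah1* and *Man2b1* were at −0.07, −0.11, −0.08 and −0.11 in that fit, *Mcoln1* and *Npc2* at −0.12 and −0.19, and *Gusb* at 0.14.

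The rest of the lysosomal genes were read from lists that were chosen with earlier results of these data known. Of 108 further lysosomal genes, 101 were tested and 24 called (23.8%, where 14.3% of all tested genes were called), 8 higher and 16 lower. With surrogate variables 0 of the 101 were called (0.374% of all genes), and with a length offset 16 (11.8% of all genes). The transcription factor genes known to act on lysosomal genes were not called, 0 of 6 by edgeR, DESeq2 or limma-voom. They include *Tfeb* (log2 fold change −0.12, adjusted p = 0.252), *Tfe3* (0.13, 0.331) and *Mitf* (0.26, 0.141). At an unadjusted p under 0.05, 1 of the 6 was higher and 0 were lower.

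Of 12 genes for the assembly and regulation of the pump, 5 were called (41.7%, where 14.3% of all tested genes were called) and all 5 were higher. *Dmxl1*, *Dmxl2*, *Wdr7* and *Rogdi* encode parts of the rabconnectin-3 complex, which promotes the joining of V1 to V0, and *Oxr1* encodes a protein with a TLDc domain, a family that binds the pump. *Dmxl2* was lowest 24.1, median 35.0 and highest 54.1 CPM in A226Y and 16.8, 24.1 and 30.0 CPM in WT mice. In 9 of 10 A226Y mice it was above every WT mouse, and the log2 fold change was 0.70 (SE 0.15, adjusted p = 0.00486). The log2 fold changes were 0.28 for *Dmxl1* (adjusted p = 0.0332), 0.17 for *Wdr7* (0.0364), 0.53 for *Rogdi* (0.0438) and 0.22 for *Oxr1* (0.0347). *Rogdi* covered 7.72 to 23.7 CPM in A226Y mice, below as well as above the WT range of 10.3 to 17.7 CPM.

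The sum over the 12 assembly genes was 305 to 356 CPM in A226Y mice and 273 to 310 CPM in WT mice, and 8 A226Y mice were above every WT mouse. *Dmxl2* stayed called whichever mouse was left out, but the calls of *Dmxl1*, *Wdr7*, *Rogdi* and *Oxr1* were lost in 10, 9, 12 and 11 of the 18 fits that left out 1 mouse, among them that without WT mouse 24 for all 4 (adjusted p up to 0.0827 over all these fits). *Dmxl1* and *Wdr7* were also not called with a length offset (adjusted p = 0.181 and 0.319), *Dmxl1*, *Oxr1* and *Wdr7* not with a GC offset (0.103, 0.0744 and 0.0512), *Rogdi* not with limma-voom (0.0649), and none of the 5 was called with surrogate variables, where *Dmxl2* was at 0.21 (adjusted p = 0.264). The biogenesis genes *Vma21*, *Tmem199* and *Ccdc115* had log2 fold changes of 0.12, 0.16 and −0.02 and were not called.

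Of 11 further subunit genes, mostly isoforms of other tissues, 6 did not pass the filter and 5 were tested. *Tcirg1*, the a3 isoform of osteoclasts and macrophages, was lowest 32.3, median 38.0 and highest 57.4 CPM in A226Y and 41.9, 47.6 and 52.1 CPM in WT mice. In 9 A226Y mice it was below every WT mouse, and its log2 fold change was −0.28 (SE 0.09, adjusted p = 0.0359). That call was lost in 12 of the 18 fits that left out 1 mouse, WT mice 24 and 33 among them, with an adjusted p up to 0.0661. *Atp6v0d2*, the d2 isoform of osteoclasts and macrophages, was 2.67, 4.24 and 6.39 CPM in A226Y and 3.94, 9.19 and 63.0 CPM in WT mice. Its WT spread came largely from mouse 33, the WT mouse with the highest macrophage sum (1820 CPM). A226Y mouse 29 had a macrophage sum of 2190 CPM, and no A226Y mouse exceeded 6.39 CPM of *Atp6v0d2*. The part of macrophages in these values was not tested. The log2 fold change was −1.81 (SE 0.44, adjusted p = 0.0112) with WT mouse 33 and −1.03 without it (adjusted p = 0.0247), and with limma-voom the adjusted p was 0.0771.

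**Figure D4:**
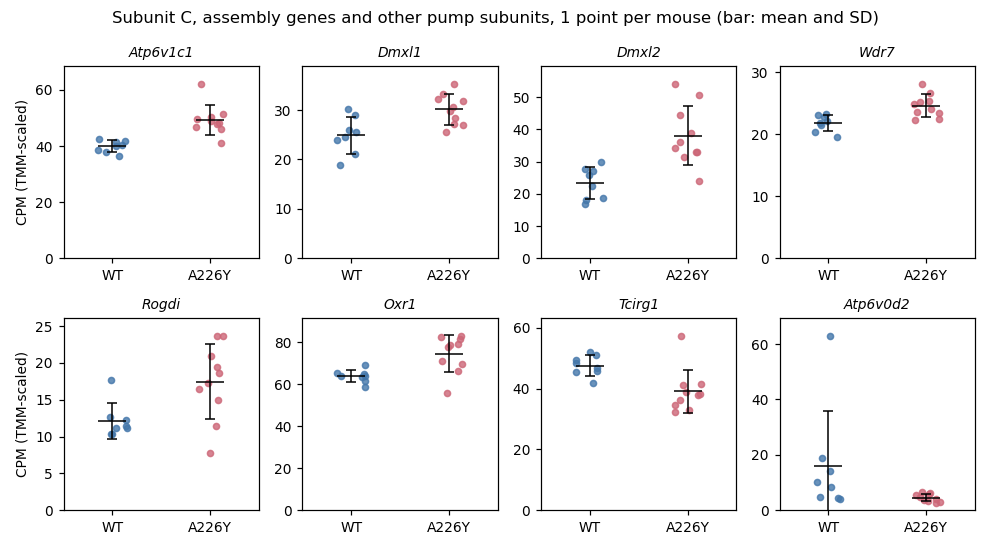
Each panel shows 1 gene, with 1 point per mouse (8 WT, 10 A226Y) in TMM-scaled CPM on an axis from 0 and black bars for the mean and SD. *Atp6v1c1* and the assembly genes *Dmxl1*, *Dmxl2*, *Wdr7*, *Rogdi* and *Oxr1* had higher means in A226Y mice, *Tcirg1* and *Atp6v0d2* lower ones, and 1 WT mouse held 63.0 CPM of *Atp6v0d2*.

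Among 38 further lysosomal hydrolases and activators, 10 were lower and 1 was higher (28.9% called, against 14.3% of all tested genes). Their median log2 fold change was −0.13. Those with small p-values included *Arsa*, arylsulfatase A (0.56, adjusted p = 0.00367), *Scpep1*, a carboxypeptidase (−0.35, 0.00645), *Idua*, α-iduronidase (−0.32, 0.011), and *Pla2g15*, a lysosomal phospholipase (−0.57, 0.0128). *Arsa* was 17.7 to 30.7 CPM in A226Y and 12.2 to 20.8 CPM in WT mice, with 8 A226Y mice above every WT mouse. *Idua* was 15.3 to 17.1 CPM in A226Y and 16.8 to 26.3 CPM in WT mice, with 9 A226Y mice below every WT mouse. With surrogate variables 0 of the 38 were called by edgeR (5 at an unadjusted p under 0.05), and *Arsa*, *Scpep1* and *Pla2g15* were at 0.32 (adjusted p = 0.213), −0.21 (0.282) and −0.19 (0.387).

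Of 26 further membrane proteins tested, 3 were called (11.5%, where 14.3% of all tested genes were called), all lower. They were *Clcn7*, a chloride-proton exchanger (log2 fold change −0.33, adjusted p = 0.0061), *Tpcn1*, a cation channel (−0.38, 0.0134), and *Laptm4a* (−0.23, 0.0157, and 0.0812 with a length offset). *Clcn7* lies 0.411 Mb from *Rps2* on chromosome 17, and the pump member *Atp6v0e* 1.94 Mb from it, and the part of the targeted locus in their values was not tested. Of 14 genes for the sorting and activation of lysosomal enzymes, 2 were higher and 1 was lower (21.4% called). *Ap1g1*, a clathrin adaptor subunit, had a log2 fold change of 0.21 (adjusted p = 0.00883), and *Sumf1*, which activates sulfatases such as that of *Arsa*, of 0.23 (0.029). The call of *Ap1g1* was lost with a length offset (adjusted p = 0.123), and that of *Sumf1* without A226Y mouse 7 or WT mouse 14, 21, 24 or 33 (adjusted p up to 0.0604). *Nagpa*, which uncovers the mannose 6-phosphate tag of the enzymes, had a log2 fold change of −0.34 (0.0074), and in 9 A226Y mice it was below every WT mouse.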

How the data were processed

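The files deposited by the authors hold raw counts, 1 integer per gene and mouse, for 22524 Ensembl genes. The methods name RSEM with an Ensembl annotation for short single-end reads, whereas the submitters' processing notes name fastp, STAR, featureCounts and GRCm38, so the counting step is uncertain. Whether it separated strands is uncertain as well. Symbols, positions and transcripts were taken from GENCODE M21 (GRCm38), which held 22214 of the identifiers, and promoters from RefSeq. Genes that reached 10 counts in 50% or more of the A226Y mice or of the WT mice (13353) were compared with edgeR 4.0.16 (R 4.3.3), using TMM scaling, the quasi-likelihood test, no covariates and Benjamini-Hochberg adjustment over all of them. The common biological coefficient of variation was 0.194, and the part of counting error in single genes was not tested. A gene was called at an adjusted p under 0.05. The test was checked on simulated counts with known changes.

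The members and lists were chosen with earlier results of these data known. Members could all be named. Called ones were given in full, as was the member with the smallest p of a role group without calls, together with the most abundant member of each group by length, the 3 with the widest residual SD, and at most 5 called genes of each further list. Alternatives were RLE, upper-quartile and library-size scaling, no filter, filterByExpr, DESeq2 1.42.0, limma-voom 3.58.1, surrogate variables (sva 3.50.0), loess offsets on length or GC content, and leaving out each mouse. One called gene of these lists is not reported here by name.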

Additional observations from a re-analysis of the deposited data

Results flagged for a closer look

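In each genotype, the highest and the lowest mouse of each member was set against the others by Dixon's criterion, which flags about 1 in 20 groups by chance. Of 78 groups, 8 had such a mouse. Values are TMM-scaled CPM.

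*Ctss* reached 100 in A226Y mouse 29, where the next highest A226Y mouse had 52.4, and 98.4 in WT mouse 33, where the next had 63.7. *Gaa* reached 191 in WT mouse 6 (next 137), and *Atp6v1g1* reached 29.9 in the same mouse (next 26.1). *Gla* reached 9.32 in WT mouse 14 (next 7.24). *Atp6v1c1*, the called pump gene, reached 62.2 in A226Y mouse 23 (next 51.3), and *Tpp1* fell to 76.0 in that mouse (next 93.6). *Atp6v1a* was lowest in WT mouse 24, at 52.8 (next 57.8).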

How the results depend on the processing

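No paired analysis was possible because the genotypes share no replicate numbers. Over the alternatives that kept all mice, 1581 to 2418 genes were called, other than with surrogate variables (50 genes, 0 members, 0 of them lower). The 10 called members kept their direction in every alternative, and those that lost their call in single fits are named in the text. Members called numbered 10 with RLE, upper quartile, filterByExpr, no filter and limma-voom, 15 with DESeq2, 9 with the GC offset (2 of them pump genes) and 8 with the length offset. With scaling by library size alone, 8 members were called (3 higher, 5 lower) and 15.4% of all genes. The median log2 fold change of all genes rose to 0.04 there, and 67.9% of all calls were higher, against 50.8%. *Man2b1*, *Asah1* and *Mcoln1* lost their calls in that fit (adjusted p = 0.0526, 0.0515 and 0.0976) and *Ctsl* gained one (0.0375). With mice 29 and 33 left out together, 16 members were called, 14 of them lower, and 17.8% of all genes.

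Leaving out each mouse gave 1255 (without WT mouse 14) to 2560 genes (without A226Y mouse 29). Members called ran from 6 without WT mouse 24, where 9.83% of all genes were called, to 16 without WT mouse 6, where 18.8% were called. Lower members numbered 5 to 12. From 1 to 3 pump members were called, 3 without WT mouse 6 (*Atp6v0a1*, *Atp6ap2* added) or WT mouse 33 (*Atp6v0b*, *Atp6v1f* added). Calls in the other lysosomal lists numbered 14 to 28 with 1 mouse left out, 16 with the length offset and 0 with surrogate variables.

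Some log2 fold changes of uncalled members changed sign, without a call. Most were near 0, other than *Ctsc* (−0.47) and *Gaa* (0.17). With library size alone they were 0.005 for *Atp6v1b2*, 0.033 for *Atp6v1d*, 0.024 for *Atp6v1e1*, 0.021 for *Atp6v1g1* and 0.035 for *Lamp2*. With surrogate variables they were 0.019 for *Atp6v1b2*, 0.001 for *Ctsc*, −0.035 for *Gaa*, 0.030 for *Gla*, 0.103 for *Lipa* and 0.084 for *Lamp2*. The length offset gave 0.046 for *Atp6v1e1* and 0.045 for *Atp6v1g1*, the GC offset 0.015 for *Ctsf* and 0.011 for *Neu1*, and the fit without mice 29 and 33 gave 0.023 for *Lamp2*. With 1 mouse left out, *Atp6v1d* ran from −0.025 to 0.017, *Atp6v1g1* from −0.067 to 0.010, *Gla* from −0.097 to 0.021 and *Lamp2* from −0.025 to 0.039. The cause of these changes was not tested. Each member had at least 142 counts in every mouse, and the part of depth was not tested.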
